A study of Mus musculus with 55 samples.

Results

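The genes described here were listed by the study for both of its TCPOBOP-treated groups, that is, in the table of genes that changed in Setd8-LKO mice given TCPOBOP and in the table of genes that changed in wild type (WT) mice given TCPOBOP, each set against the same untreated WT mice. The first table held 3900 genes and the second 719. Their overlap was 506 genes of the 4113 in either table, which is 13.0% of the first and 70.4% of the second. Within these genes the 4 libraries labelled Setd8-LKO TCPOBOP were compared with the 5 WT TCPOBOP libraries, so that both sides had received the drug and the genotype was what the labels changed. The question was how livers with the Setd8-LKO label differ from WT livers after the same mitogen. Untreated Setd8-LKO RNA was not analysed here, so a difference in the answer to TCPOBOP and a difference present before the drug cannot be told apart, and the change of Setd8-LKO TCPOBOP from untreated WT holds genotype and drug together.

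Setd8-LKO stands for Setd8 lox/lox-AlbCre, in which an exon of Setd8 is flanked by loxP sites and Cre is driven by the albumin promoter, so that the deletion is limited to hepatocytes and cells derived from them. All RNA came from whole livers of male C57Bl6 mice 45 to 50 days old. Treated mice received a single intraperitoneal injection of TCPOBOP (3 mg/kg), and liver was collected after 24 h. The 5 WT untreated livers are called untreated by their labels, while the methods mention a vehicle, so it is not clear whether they were injected. The labels number the libraries within each group without saying how animals were assigned to the sequencing runs, and the p-values measure the spread between these libraries.

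Setd8, also named Kmt5a, is the methyltransferase that places a single methyl group on lysine 20 of histone H4, a mark needed for replication licensing, chromosome compaction and passage through mitosis. TCPOBOP is an agonist of the constitutive androstane receptor (CAR), the nuclear receptor that switches on drug-metabolizing enzymes in hepatocytes. It is also a direct mitogen of the liver: it drives quiescent hepatocytes into the cell cycle without a preceding loss of tissue.

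Kmt5a itself was in the table of Setd8-LKO TCPOBOP and not in that of WT TCPOBOP. Libraries with the Setd8-LKO label held 1341, 1465, 1338 and 1313 normalized counts of it, above the 613, 567, 761, 563 and 715 of untreated WT, so the level was higher in every library labelled as deleted. Gene-level counts cannot show whether an exon is missing, and the groups are therefore named by their labels throughout. Every direction given for Setd8-LKO below is a direction for the libraries that carry this label. The libraries came from 2 sequencing runs named in the column headers: run A held 1 Setd8-LKO, 3 WT TCPOBOP and 3 untreated libraries, and run B held 3, 2 and 2. The 506 genes took 1698352 to 1931341 raw counts per library in Setd8-LKO TCPOBOP, 1346904 to 1751554 in WT TCPOBOP and 822417 to 1078779 in untreated WT, sums over selected genes that are not sequencing depth. General hepatocyte markers, of which 5 of 9 were listed for Setd8-LKO, summed to 433008 to 623763 normalized counts in these livers against 1105608 to 1786895 in untreated WT. Periportal markers (7 of 9) summed to 28411 to 54077 against 131790 to 227535, and pericentral markers (5 of 10) to 41831 to 94515 against 51891 to 132633, ranges that overlap. The 6 of 7 cholangiocyte markers listed there summed to 1627 to 7466 against 427 to 690, and the 6 of 10 stellate cell markers to 6373 to 15307 against 2372 to 3566. Of all these lists only Gls2 and Ass1 (periportal) and Slc1a2 and Cyp2a5 (pericentral) were among the 506 genes, so the sums are not known for WT TCPOBOP. A marker was listed only when it differed at least 2-fold from untreated WT, so a difference in these sums follows in part from that choice. Markers that were not listed are not in the sums, which are descriptions. In RNA of whole liver, fewer cells of a type and less RNA per cell cannot be told apart.

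Of the 506 genes, 379 were protein coding, 40 were annotated as antisense and 34 as lincRNA, and most of the rest were pseudogenes. In 299 genes both treated groups stood above untreated WT, and in 168 both stood below. The other 39 genes lay on opposite sides: 32 were above untreated WT in WT TCPOBOP and below it in Setd8-LKO TCPOBOP, and 7 were the reverse. Because the study listed a gene only when it differed at least 2-fold from untreated WT, the 39 had to differ between the treated groups, and their values are given as a description. For the 467 genes on the same side the direction of the difference was not fixed in this way, but the choice limited it. A gene could be called 2-fold nearer to untreated WT in Setd8-LKO TCPOBOP only where WT TCPOBOP had moved well beyond 2-fold. No such limit held for a gene that went further from untreated WT. The smallest log2 difference from untreated WT among the 467 genes was 1.01 in Setd8-LKO TCPOBOP and 1.01 in WT TCPOBOP. The annotated spans of 119 members overlapped another member in 66 pairs, 58 of them on opposite strands, and the members of every pair were in the same class. Whether the counting used strand is not given in the sources used here, so reads of such partners cannot be told apart. Counting overlapping members once left 441 of the 506.

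In many genes the libraries labelled Setd8-LKO TCPOBOP went further from untreated WT than WT TCPOBOP libraries did, among rising and among falling genes. Of the 299 genes that rose in both, 52 (17.4%) were called higher in Setd8-LKO TCPOBOP than in WT TCPOBOP, 16 (5.35%) were called lower and 231 were not called. Of the 168 genes that fell in both, 158 passed the filter on low counts. Among these, 54 (34.2%) were called lower in Setd8-LKO TCPOBOP, 0 (0.0%) were called higher and 104 were not called. A call required an adjusted p under 0.05 and at least a 2-fold difference by edgeR's quasi-likelihood test. The count of 0 stood beside 4 genes higher at an unadjusted p under 0.05, 1 gene called by DESeq2 and 0 by limma, all over the same chosen genes. In WT TCPOBOP the median log2 level over untreated WT was 2.02 for the rising and -1.43 for the falling genes. With the 2-fold rule of the study, the typical falling gene thus had little room for a call nearer to untreated WT. The splits of 52 and 16 and of 54 and 0 follow in part from that choice. Over the 457 tested genes on the same side, 52 (11.4%) were higher and 70 (15.3%) lower. With the opposite-side genes, whose direction was fixed by the choice, 59 (11.9%) and 100 (20.2%) of 496 tested genes were past the threshold.

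The median log2 difference between Setd8-LKO TCPOBOP and WT TCPOBOP was 0.22 for the genes that rose in both, with quartiles of -0.45 and 1.10. For those that fell in both it was -1.05, with quartiles of -2.05 and -0.25. The libraries of the groups did not overlap in 87 (29.1%) of the rising genes in the higher direction and in 45 (15.1%) in the lower direction, and in 79 (50.0%) of the falling genes in the lower direction against 2 (1.27%) in the higher. All 122 genes called on the same side had the same sign of difference in each run taken alone. So did 250 of all 299 rising genes and 123 of the 158 tested falling genes. The runs are parts of the same libraries that made the calls, so this is not separate support. The 2 sides were each set against the same untreated libraries, so the following values share them: among the 52 genes called higher, the median log2 level over untreated WT was 1.90 in WT TCPOBOP and 4.18 in Setd8-LKO TCPOBOP, and among the 54 called lower it was -1.43 and -3.79. These genes were called for a difference between the treated groups, so the gap of their medians follows from the call. Over all 299 rising genes the medians were 2.02 and 2.275, and over all 168 falling genes -1.43 and -2.72. Scaling estimated from the 506 genes alone moved the median difference up by 0.23 (DESeq2 size factors) or 0.29 (TMM) on the log2 scale. The rising genes then split into 61 higher and 10 lower or 65 and 9, and all same-side genes into 63 and 56 or 67 and 52. The 16 rising genes called lower became 9 without Setd8-LKO replicate 1, 8 without replicate 2 and 10 without replicate 4. From the run B libraries alone the 52, 16 and 54 calls became 12, 2 and 16.

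**Figure D1:**
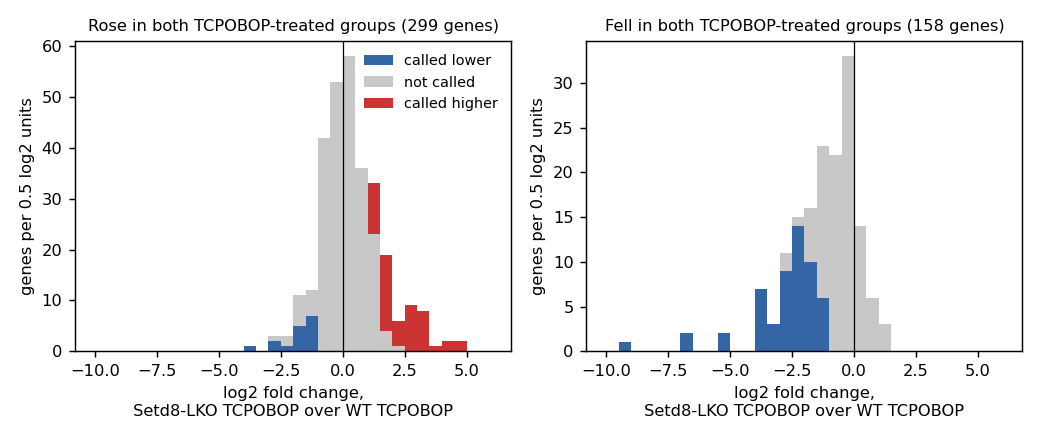
Fitted log2 fold change of Setd8-LKO TCPOBOP over WT TCPOBOP (x axis) for the tested genes that rose in both groups (left, 299 genes) or fell in both (right, 158 genes), as genes per bin of 0.5 (y axis). Blue marks genes called lower, red genes called higher and gray genes not called; the rising genes centre near 0 with a tail of 52 calls to the right, and the falling genes lean left with 54 calls.

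The shared cytochrome P450 genes that CAR is known to switch on were above untreated WT in both groups. Of a list of 24 such genes, 18 were in the Setd8-LKO table, 20 in the WT table and 16 in both, and all 16 rose in both. Genes listed for a single group are not described here, so the 16 do not stand for the whole list. Between the genotypes 3 were called lower, 0 higher and 13 were not called, beside 5.35% lower, 17.4% higher and 231 of 299 not called among all genes that rose. Cyp2b10 (chr7:25897620-25926624, plus strand of mm10), the P450 most used as a readout of CAR, counted 35767, 31592, 66038 and 55164 in the libraries labelled Setd8-LKO TCPOBOP, 55856, 61594, 57008, 59425 and 53827 in WT TCPOBOP and 28, 25, 70, 28 and 106 in untreated WT. The treated groups overlapped, and both were far above the untreated libraries. The difference was -0.29 ± 0.21 (log2 ± SE, adjusted p = 1). Cyp2c29, the P450 with the highest counts of the Cyp2c members, stood at 230663 to 287271 against 223381 to 255048 normalized counts, with a difference of 0.12 ± 0.13. Cyp3a11, a major drug-metabolizing P450, had 181782, 197699, 256947 and 236705 counts in Setd8-LKO TCPOBOP and 322753, 371372, 323466, 401487 and 397726 in WT TCPOBOP. Its groups did not overlap, but the difference of -0.74 ± 0.15 missed the threshold (adjusted p = 0.0658).

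The 3 genes called lower were all of the Cyp2c family and neighbours on chromosome 19. Of the 13 others, 8 had an absolute log2 difference under 0.7. Cyp2c54 counted 8246, 9146, 25961 and 13900 against 48489, 59149, 44041, 60561 and 58734 in WT TCPOBOP, with the Setd8-LKO libraries below every WT library (log2 -1.92 ± 0.32, adjusted p = 0.014). The call was lost without Setd8-LKO replicate 2 (adjusted p = 0.0601) or replicate 4 (0.0665). Cyp2c50 (-1.34 ± 0.19, adjusted p = 0.00465) and Cyp2c37 (-1.23 ± 0.17, adjusted p = 0.00331) did not overlap between the groups either, and Cyp2c37 fell under the 2-fold limit with TMM or DESeq2 size factors. The median over the 16 genes was -0.23, beside 0.22 for all genes that rose in both. Cyp2b9, which is female-biased in mice, spread widely: 298, 422, 1098 and 1414 in Setd8-LKO TCPOBOP, 4, 157, 8, 54 and 525 in WT TCPOBOP and 2, 1, 3, 1 and 3 in untreated WT. Its groups overlapped and it was not called (2.43 ± 1.06, adjusted p = 1). The Cyp2a, Cyp2b, Cyp2c and Cyp3a41 genes have near copies within each family, and reads shared between copies make their single values uncertain. Cyp2a5 and its near copy Cyp2a4 were highest in Setd8-LKO replicate 4, at 57453 and 15698, the only Setd8-LKO library of run A.

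**Figure D2:**
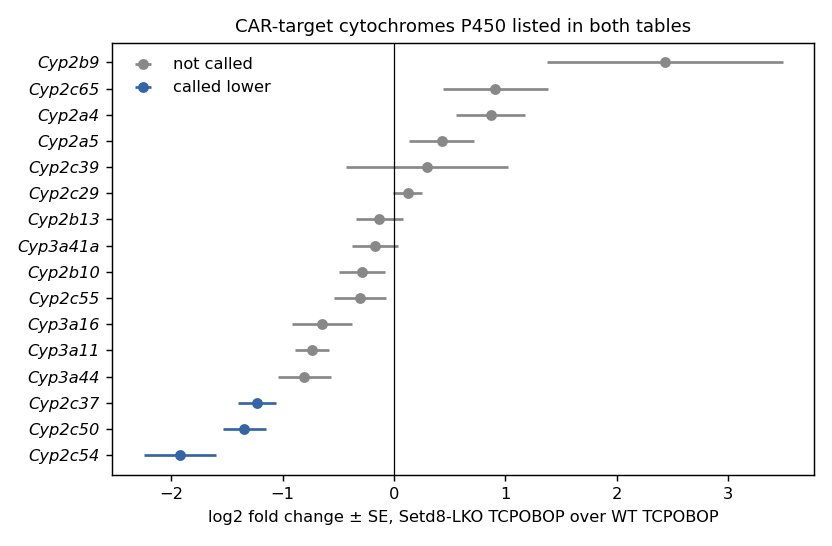
Log2 fold change of Setd8-LKO TCPOBOP over WT TCPOBOP (x axis, points with SE bars, 4 against 5 libraries) for the 16 CAR-target cytochrome P450 genes (y axis) listed in both tables. The 3 genes called lower are in blue at -1.92, -1.34 and -1.23, and the 13 in gray were not called.

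The other enzymes of drug handling behaved gene by gene. Of 28 further phase I and haem genes, 8 were shared, all rose in both groups, and 1 was called. That gene, Ces2a, a carboxylesterase that hydrolyses drugs and lipid esters, counted 15611, 21592, 23574 and 20133 in Setd8-LKO TCPOBOP, 75699, 64113, 68097, 88418 and 73426 in WT TCPOBOP and 7336, 9671, 9343, 7220 and 10255 in untreated WT. Every Setd8-LKO library lay between the untreated and the treated WT libraries (3.66-fold lower than WT TCPOBOP, log2 -1.87 ± 0.16, adjusted p = 0.000109). Por, the reductase that feeds electrons to P450 enzymes, was at 22615 to 31614 against 27977 to 38268 and was not called (-0.34 ± 0.16). Alas1, the rate-limiting enzyme of haem synthesis, did not overlap between the groups at 16787 to 28993 against 36064 to 44429, yet missed the threshold (adjusted p = 0.186). The differences of Aldh1a7, Ephx1, Cbr1, Akr1b7 and Ces2c ranged from -0.61 to 0.43 and none was called.

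Of 47 phase II conjugation genes, 10 were shared, of which 9 rose in both. The glutathione S-transferases Gsta1, Gstm2 and Gstm3, which conjugate electrophiles to glutathione, were called higher, and the sulfotransferase Sult3a1 was called lower. Gstm3 counted 72035, 80176, 59888 and 91487 in Setd8-LKO TCPOBOP, 25856, 21647, 23686, 45592 and 25847 in WT TCPOBOP and 2223, 2403, 3173, 1871 and 5255 in untreated WT, a 2.66-fold difference between the treated groups (log2 1.41 ± 0.23, adjusted p = 0.011). The lowest Setd8-LKO library stood above the highest WT TCPOBOP library, replicate 4. Gstm2 gave 1.41 ± 0.20 (adjusted p = 0.00438) and Gsta1 1.58 ± 0.31 (adjusted p = 0.0455), the latter lost on leaving out any of 7 of the 9 libraries, with adjusted p between 0.0967 and 0.177. Gstm1, the closest relative of Gstm2 on the list, was at 38885 to 50329 against 41948 to 59988 and was not called (-0.07 ± 0.15). Sult3a1 counted 6, 7, 26 and 19 against 97, 145, 126, 49 and 72, with almost no reads in untreated WT (0, 0, 1, 0 and 0). It was 6.66-fold lower (log2 -2.74 ± 0.49, adjusted p = 0.0219), and the call was lost on leaving out any of 6 libraries, with adjusted p from 0.0523 to 0.0991. Gstt3, Sult1c2, Sult1d1 and Sult1e1 were not called.

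Among 19 drug and bile acid transporters, 6 were shared, and their groups did not overlap in any of the 6, beside 19.5% of same-side genes without overlap in the higher and 27.1% in the lower direction. Abcc4, an efflux pump of bile acids and nucleotides, counted 1085, 1467, 513 and 987 in Setd8-LKO TCPOBOP, 273, 405, 348, 280 and 297 in WT TCPOBOP and 86, 95, 134, 82 and 115 in untreated WT. It was higher than in WT TCPOBOP in all 4 libraries (1.66 ± 0.27, adjusted p = 0.0128), although not without Setd8-LKO replicate 1 (adjusted p = 0.0571). Abcc3, its basolateral relative, was lower at 8120 to 10360 against 14045 to 16547 and passed the p threshold but not the fold limit (-0.70 ± 0.13, adjusted p = 0.0243). Slco1a1, an uptake carrier of organic anions, fell in both groups: 385, 337, 1045 and 286 in Setd8-LKO TCPOBOP, 2419, 2837, 2156, 3496 and 3268 in WT TCPOBOP and 9968, 9746, 7656, 6760 and 9028 in untreated WT. It was 5.52-fold lower with the label (-2.46 ± 0.39, adjusted p = 0.0091), and not called without Setd8-LKO replicate 1 (adjusted p = 0.0544). Abcg5 and Abcg8, which together form the pump that exports sterols into bile, sit head to head on chromosome 17 and their annotated spans overlap. Abcg5 was at 171, 197, 305 and 360 against 1055, 699, 1036, 659 and 548 in WT TCPOBOP and 2009, 1755, 2728, 948 and 3170 in untreated WT. Abcg5 (-1.63 ± 0.30, adjusted p = 0.0241) and Abcg8 (-1.41 ± 0.24, adjusted p = 0.0183) were called lower, and each lost its call without Setd8-LKO replicate 1 or 2 or WT TCPOBOP replicate 1 or 3, Abcg5 also without Setd8-LKO replicate 3, with adjusted p up to 0.12.

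Genes of the early growth response differed one by one. Of 25 mitogen and stress response genes, 7 were shared, and 6 of these rose in both. Jun, the AP-1 subunit induced early in liver growth, counted 1686, 1733, 1844 and 1608 in Setd8-LKO TCPOBOP, 523, 820, 606, 790 and 442 in WT TCPOBOP and 238, 230, 344, 246 and 197 in untreated WT. The groups were separate, and Jun was 2.7-fold higher with the label (1.43 ± 0.20, adjusted p = 0.004). Foxm1, the transcription factor of the G2 and M phases, counted 146, 186, 170 and 116, then 50, 23, 23, 50 and 32, and then 5, 5, 17, 14 and 10 in the same order of groups. It was 4.35-fold higher (2.12 ± 0.30, adjusted p = 0.00352). Myc, at 455 to 691 against 277 to 454 and 41 to 297 in untreated WT, rose in both groups without a called difference (0.57 ± 0.20). Gadd45b, a stress and growth response gene strongly induced by CAR agonists, was at 476, 636, 1248 and 669 against 1454, 1548, 1544, 1597 and 1201. Only Setd8-LKO replicate 3 reached the WT TCPOBOP range, and Gadd45b was called when this library, but no other single library, was left out (log2 -0.96 ± 0.26 and adjusted p = 0.334 with it, adjusted p = 0.00737 without). Gadd45a (0.24 ± 0.20) and Tsku (-0.43 ± 0.22) were not called.

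Genes of DNA replication that rose in both groups were not called different between them. Of 50 replication genes, 29 were in the Setd8-LKO table and 15 in the WT table, and all of the 15 were shared. Of these, 14 rose in both groups and 0 of the 14 were called, beside 22.7% of all rising genes. The helicase subunit Mcm2 counted 395, 616, 257 and 487 in Setd8-LKO TCPOBOP, 303, 193, 320, 400 and 319 in WT TCPOBOP and 62, 78, 86, 60 and 86 in untreated WT. Mcm5 counted 366, 554, 251 and 415, then 237, 132, 284, 322 and 257, and then 37, 53, 87, 39 and 63. The treated groups overlapped in both genes, with Setd8-LKO replicate 3 the lowest of its group, and both groups were above every untreated library. The log2 differences of the 14 ranged from -0.81 for Chaf1b, a histone chaperone subunit, to the 2.82-fold higher level of Rrm2, the ribonucleotide reductase subunit that supplies deoxynucleotides. Rrm2 was at 655, 1101, 665 and 422 against 190, 176, 176, 466 and 254, missed the threshold (adjusted p = 0.146) and was called without WT TCPOBOP replicate 4 (adjusted p = 0.0133), the only WT library to enter the Setd8-LKO range. Clspn, the replication checkpoint mediator claspin, did not overlap between the groups (1.34 ± 0.40) and missed the threshold as well. With p-values adjusted over the genes tested alone, Rrm2 (adjusted p = 0.0039), Clspn (0.0144) and E2f2 (0.0298) passed, and Rrm2 also passed with DESeq2 (0.0071) and TMM (0.0482). The origin licensing factor Cdc6 (0.68 ± 0.47), the helicase component Cdc45 (0.41 ± 0.29) and the polymerase subunits Pola1 (0.26 ± 0.23) and Pole (0.24 ± 0.32) were not called. The median over the 15 genes was 0.52. Within run A the median was 0.84 and within run B 0.09. Mcm10, an initiation factor, went against the rest of the list: it fell in both groups, to 121, 154, 232 and 328 in Setd8-LKO TCPOBOP and 710, 535, 556, 612 and 668 in WT TCPOBOP from 1666, 1999, 2169, 1309 and 1663 in untreated WT. It was called lower (-1.56 ± 0.29, adjusted p = 0.0259), a call that 7 of the 9 left-out libraries ended, with adjusted p from 0.0508 to 0.123.

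Shared genes of the G2 and M phases were above untreated WT in both groups, and the Setd8-LKO TCPOBOP group had more of their reads than WT TCPOBOP. Of 72 such genes, 65 were in the Setd8-LKO table but 9 in the WT table, and those 9 were shared. All 9 were called higher, against 17.4% of the genes that rose in both, and their median log2 difference was 2.75 beside 0.22. In WT TCPOBOP these genes stood 1.26 to 2.30 log2 units above untreated WT. As both groups had to be at least 2-fold above it, a call in the lower direction had little room. Ccnb1 (chr13:100778650-100786570, minus strand of mm10), the cyclin that starts mitosis with Cdk1, counted 447, 313, 559 and 410 in Setd8-LKO TCPOBOP, 36, 10, 19, 28 and 30 in WT TCPOBOP and 2, 6, 9, 6 and 14 in untreated WT. It was 17.5-fold higher than in WT TCPOBOP (4.13 ± 0.34, adjusted p = 7.98e-05). Cdc20, the activator of the anaphase-promoting complex, counted 507, 442, 754 and 524, then 56, 15, 33, 109 and 50, and then 10, 14, 16, 10 and 29 in the same order, a 10.6-fold difference (3.41 ± 0.45, adjusted p = 0.00225). In each of the 9 genes the lowest Setd8-LKO library was above the highest WT TCPOBOP library. WT TCPOBOP stood nearer to untreated WT: its lowest library lay within the untreated range for 6 of the 9, Ccnb1, Cdc20 and Top2a among them.

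Kif2c, a kinesin that takes apart microtubule ends, counted 148, 110, 173 and 139 against 19, 11, 12, 20 and 11 (3.31 ± 0.27, adjusted p = 6.29e-05). Iqgap3, a scaffold of proliferating cells, counted 388, 338, 417 and 375 against 27, 11, 28, 52 and 34 (3.65 ± 0.34, adjusted p = 0.00018). Top2a, the topoisomerase that disentangles sister chromatids, counted 675, 770, 730 and 469 against 66, 48, 77, 170 and 130 (2.75 ± 0.36, adjusted p = 0.002). These 3 genes were at least 6.75-fold higher with the label. The mitotic kinase Pbk gave 2.43 ± 0.40 (adjusted p = 0.0121), the kinetochore protein Nuf2 2.19 ± 0.44 (adjusted p = 0.0488), the cytokinesis factor Ect2 1.91 ± 0.18 (adjusted p = 0.000157) and Birc5, also named survivin, 1.82 ± 0.21 (adjusted p = 0.00096). Nuf2 lost its call on leaving out any of 8 libraries, with adjusted p from 0.0772 to 0.188, and Pbk without Setd8-LKO replicate 2 (adjusted p = 0.0546). The log2 ratios of the 9 genes ranged from 1.47 to 4.18 within run A and from 1.74 to 3.88 within run B. The same livers had lower sums of the listed general hepatocyte markers than untreated WT, and higher sums of the listed cholangiocyte and stellate cell markers. Those markers were listed because they had changed, and the part of cell composition in the G2/M differences was not tested.

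**Figure D3:**
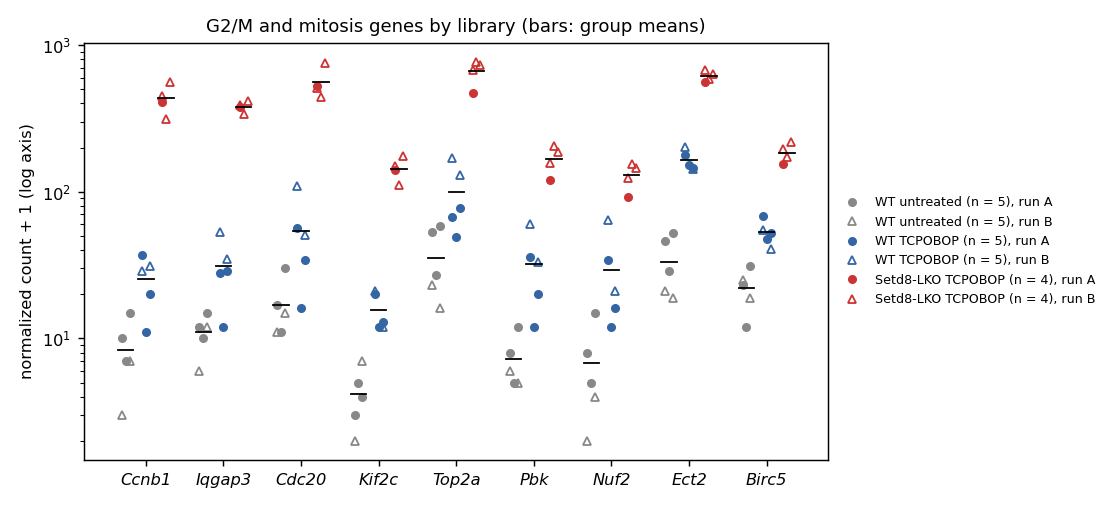
Normalized counts plus 1 (y axis, log scale) of the 9 shared G2/M and mitosis genes (x axis) in each untreated WT (gray), WT TCPOBOP (blue) and Setd8-LKO TCPOBOP (red) library, with filled circles for run A, open triangles for run B and bars for group means. For every gene all 4 red points lie above all 5 blue points, and blue and gray points overlap in 6 of the 9 genes.

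Promoter windows were searched for a pair of motifs known from cell cycle genes, and for AGGTCA, which is given last. CCAAT is the motif bound by NF-Y, an activator. TTTGAA is the core of the cell cycle homology region, through which mitotic genes are switched off in resting cells. RefSeq (build GRCm38.p6) gave a window from 250 bases before to 50 bases after the start for 283 of the 506 genes, counting windows within 500 bases of the deposited start, and for 7 of the 9 G2/M genes. Searched on both strands, CCAAT was in 4 of the 7 windows and the motif TTTGAA also in 4, beside 37.4% and 17.9% of 32851 RefSeq windows of the same length. For the 14 replication genes with a window the counts were 11 and 2. Of the G2/M windows, those of Cdc20, Top2a and Ect2 held both motifs, Iqgap3 only TTTGAA, Ccnb1 only CCAAT, and Birc5 and Nuf2 neither. Cdc20 (chr4:118437294-118437593, minus strand) and Top2a (chr11:99024140-99024439, minus strand) are shown as examples with both. Capitals mark either motif on either strand, and the last 50 bases lie after the start.
Cdc20: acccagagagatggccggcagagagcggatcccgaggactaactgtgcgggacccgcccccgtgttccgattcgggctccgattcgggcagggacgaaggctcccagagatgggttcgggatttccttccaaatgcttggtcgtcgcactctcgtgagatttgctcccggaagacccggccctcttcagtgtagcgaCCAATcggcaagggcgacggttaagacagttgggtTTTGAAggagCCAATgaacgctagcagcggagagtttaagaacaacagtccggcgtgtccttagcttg
Top2a: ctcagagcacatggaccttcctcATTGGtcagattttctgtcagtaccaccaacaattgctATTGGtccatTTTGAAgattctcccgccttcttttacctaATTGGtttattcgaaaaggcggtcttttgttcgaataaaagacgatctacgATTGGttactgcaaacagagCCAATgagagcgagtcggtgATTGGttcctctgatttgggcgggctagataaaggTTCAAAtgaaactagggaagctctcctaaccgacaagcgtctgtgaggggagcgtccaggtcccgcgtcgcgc
Cdc20 held 1 TTTGAA and 2 CCAAT, and Top2a held 2 and 6. AGGTCA was in 6 of the 14 windows of CAR-target P450 genes, beside 43 (15.2%) of the 283 members and 16.3% of the RefSeq windows. A match of letters is a description and does not show a bound site.

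The rest of the rising genes that stood higher with the label were a mixed group. Mybl1 (chr1:9667415-9700209, minus strand), a transcription factor of the Myb family, had the largest difference: 1017, 1074, 700 and 540 in Setd8-LKO TCPOBOP, 30, 18, 32, 46 and 39 in WT TCPOBOP and 3, 3, 11, 16 and 13 in untreated WT. That is 25.2-fold (4.65 ± 0.32, adjusted p = 1.97e-05), with a wide gap between the treated groups. Apoa4, an apolipoprotein of triglyceride-rich particles, counted 108639, 84980, 48901 and 71878 against 2609, 3853, 3043, 5078 and 3212 in WT TCPOBOP and 1402, 1989, 1245, 1904 and 1122 in untreated WT. It was 22.1-fold higher with the label (4.47 ± 0.28, adjusted p = 1.22e-05). Gm10680, annotated as antisense, overlaps Apoa4 on the other strand and followed it library by library (4.50 ± 0.28), so the pair counts as a single observation. Prom1, a membrane glycoprotein of progenitor and biliary cells that stood on the list of sex-biased genes, counted 1149, 1565, 387 and 1141 against 181, 37, 157, 216 and 190 (2.76 ± 0.49, adjusted p = 0.0216), a call lost on leaving out any of 6 libraries, with adjusted p from 0.0599 to 0.091. Gtse1, a p53 target expressed in G2, was the only called gene of the 2 p53 targets shared, at 299, 247, 244 and 249 against 78, 23, 27, 52 and 23 (2.68 ± 0.36, adjusted p = 0.00288). The other, Gdf15, a stress-induced cytokine, did not overlap between the groups at 2081 to 3791 against 1271 to 2057 but missed the threshold (0.75 ± 0.22, adjusted p = 0.466).

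By their class and call, the 16 rising genes called lower had to stand between untreated WT and WT TCPOBOP in the mean of the libraries with the label. Their values are given as a description. Fndc5, the precursor of irisin, counted 63, 99, 92 and 88 in Setd8-LKO TCPOBOP, 478, 246, 425, 514 and 446 in WT TCPOBOP and 2, 3, 6, 8 and 12 in untreated WT. It was 4.93-fold lower (-2.30 ± 0.26, adjusted p = 0.000704) while still above every untreated library. Saa-ps, a serum amyloid A pseudogene whose reads may be shared with its parent family, counted 33, 14, 35 and 12 against 299, 262, 213, 301 and 374 and 0, 0, 0, 2 and 0 in untreated WT (-3.61 ± 0.37, adjusted p = 0.000357). Gm7208, a transcribed pseudogene, counted 2171, 3128, 3642 and 2718 against 11274, 9459, 10708, 13837 and 11242 (-1.96 ± 0.19, adjusted p = 0.000187). Gm26911, an antisense transcript of Pdzrn3, counted 7, 18, 4 and 21 against 135, 79, 68, 96 and 53 (-2.79 ± 0.48, adjusted p = 0.0183) and lost its call without Setd8-LKO replicate 1 (adjusted p = 0.0958) or 2 (0.0503). In the 16 genes the median log2 level over untreated WT was 3.26 in WT TCPOBOP and 1.64 in Setd8-LKO TCPOBOP, a gap in the direction that the call requires.

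Of the genes that fell in both groups, the 54 called lower are described here; 104 of the 158 tested were not called, and 23 had a positive difference. With DESeq2 size factors or TMM, 2 falling genes were called higher. Of the 5 with the largest differences, all but Sult2a8 were at 6 or fewer normalized counts in every library labelled Setd8-LKO. Hsd3b5 (chr3:98618634-98630252, minus strand), a male-biased hydroxysteroid dehydrogenase, counted 5, 2, 5 and 2 in Setd8-LKO TCPOBOP, 245, 126, 149, 939 and 502 in WT TCPOBOP and 6989, 8072, 2739, 2914 and 2579 in untreated WT. It was lower in every Setd8-LKO library by a wide gap (-6.75 ± 0.79, adjusted p = 0.000974). Sult2a8, a sulfotransferase of bile acids, counted 34, 34, 265 and 109 against 3342, 3611, 3292, 5473 and 4488 and 15207, 15748, 9474, 10059 and 11843, which was 36.6-fold lower (-5.19 ± 0.65, adjusted p = 0.00162). The lectin gene Clec2h counted 2, 0, 0 and 0 against 48, 7, 68, 113 and 64, which is 2 raw counts in all against 236, too few for a fold change (adjusted p = 0.0052). Its call was lost without Setd8-LKO replicate 1 (adjusted p = 0.057). The pseudogene Serpina4-ps1 counted 4, 1, 2 and 0 against 193, 483, 244, 1947 and 3468 (-9.40 ± 1.28), and its WT TCPOBOP libraries reached the untreated range of 1926 to 5697 in run B but not in run A. The lincRNA Gm31583 gave -5.04 ± 0.35.

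Growth hormone-regulated and sex-biased genes, which set apart male from female liver, were mostly called lower among those that fell. Of 36 on the list, 33 were in the Setd8-LKO table and 11 in the WT table, all 11 shared. Of these 7 fell in both, and 6 of the 7 were called lower, against 34.2% of the falling genes. Cyp7b1, the hydroxylase of oxysterols, counted 130, 125, 446 and 178 in Setd8-LKO TCPOBOP, 1539, 1369, 1186, 1921 and 2119 in WT TCPOBOP and 8659, 7450, 5117, 8790 and 3802 in untreated WT. It was 7.4-fold lower (-2.89 ± 0.41, adjusted p = 0.004). Nudt7, a peroxisomal coenzyme A hydrolase, counted 578, 482, 597 and 636, then 2481, 2608, 2441, 4927 and 5027, and then 19453, 20546, 16929, 17027 and 10760 in the same order (-2.61 ± 0.28, adjusted p = 0.000576). Both showed 3 separate levels, with untreated WT highest and Setd8-LKO TCPOBOP lowest. Selenbp2, a selenium-binding protein, did so too at 2056 to 2391, 8661 to 13133 and 17575 to 32030 (-2.32 ± 0.17, adjusted p = 4.02e-05). Cyp2u1 gave -2.05 ± 0.32 (adjusted p = 0.00792, or 0.0503 without Setd8-LKO replicate 1) and Susd4 -1.57 ± 0.22 (adjusted p = 0.00348). Cib3 was not called (-0.04 ± 0.39). Of the 4 that rose, Prom1 was called higher as given above, and A1bg, Cux2 and Cyp3a41b were not called; Cyp3a41b, which shares reads with Cyp3a41a, was at 4070 to 7603 against 7446 to 25250. The livers labelled Setd8-LKO had the lower sums of listed general and periportal hepatocyte markers given above. The part of cell composition in the falling genes was not tested.

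Metabolic genes that fell were split. Scd1, the desaturase that makes monounsaturated fatty acids, counted 8907, 9130, 3166 and 13352 in Setd8-LKO TCPOBOP, 61961, 64745, 66161, 23056 and 23088 in WT TCPOBOP and 74384, 111409, 141529, 59719 and 213883 in untreated WT. It was 5.53-fold lower with the label (-2.47 ± 0.48, adjusted p = 0.0375). WT TCPOBOP libraries of run A stood at 61961 to 66161 and those of run B at 23056 and 23088, and the Scd1 call was lost on leaving out any of 7 libraries, with adjusted p from 0.0555 to 0.166. Gls2, the glutaminase of periportal hepatocytes, counted 875, 676, 667 and 1477 against 4572, 3839, 4013, 4004 and 3584 and 7715, 9034, 13777, 6093 and 14592 in untreated WT, 4.33-fold lower (-2.12 ± 0.25, adjusted p = 0.00104). Ass1, a urea cycle enzyme that is also periportal, fell to the same range in both, 17482 to 30511 against 15376 to 23450 from 39082 to 96180 (0.13 ± 0.20). Got1 (0.35 ± 0.22) and the gluconeogenic enzyme G6pc (-1.16 ± 0.45, with Setd8-LKO replicate 4 at 333 and the others at 1435 to 2160) were not called. The lipid droplet gene Fitm1 (-0.02 ± 0.37) and the coactivator Ppargc1a (-0.07 ± 0.26) were close to 0.

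Genes of cholesterol synthesis were on opposite sides of untreated WT. Of 40 genes of fatty acid and cholesterol synthesis, 28 were in the Setd8-LKO table, 16 in the WT table and 9 in both. Apart from Scd1, the 8 shared genes rose in WT TCPOBOP and fell in Setd8-LKO TCPOBOP. Since this pattern is what placed them among the 39 genes, the differences are descriptions without a test. Fdps (chr3:89093588-89101959, minus strand), the synthase of farnesyl diphosphate, counted 3872, 4387, 2575, 4979 and 4352 in untreated WT, 11198, 14050, 12472, 10796 and 10127 in WT TCPOBOP and 819, 1386, 852 and 761 in Setd8-LKO TCPOBOP. Msmo1, the methylsterol monooxygenase, counted 2930, 3293, 2367, 5650 and 3199, then 10968, 9061, 12210, 9939 and 9930, and then 1109, 1560, 1076 and 1177 in the same order. Idi1, the isomerase of isopentenyl diphosphate, counted 3523, 3838, 2422, 5943 and 3421, then 9626, 10455, 9381, 10332 and 10483, and then 1296, 2062, 1713 and 2055. All 3 levels were separate in each of these genes, with WT TCPOBOP highest.

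The differences between the treated groups were -3.62 ± 0.22 for Fdps and -3.08 ± 0.17 for Msmo1 on the log2 scale. They were -2.70 ± 0.18 for the squalene synthase Fdft1, -2.63 ± 0.16 for the lanosterol demethylase Cyp51, -2.50 ± 0.17 for Idi1, -2.38 ± 0.19 for the lanosterol synthase Lss and -2.27 ± 0.18 for the sterol dehydrogenase Nsdhl. The spread within WT TCPOBOP was narrow: Cyp51 ranged from 7480 to 8254 over 5 libraries and Idi1 from 9381 to 10483. Taken by run, the log2 ratio was -4.04 (run A) and -3.36 (run B) for Fdps and -3.19 and -2.99 for Msmo1. Gm43738, a locus that overlaps Fdps on the same strand, moved with Fdps, and the processed pseudogenes among the 32 may share reads with parent genes.

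**Figure D4:**
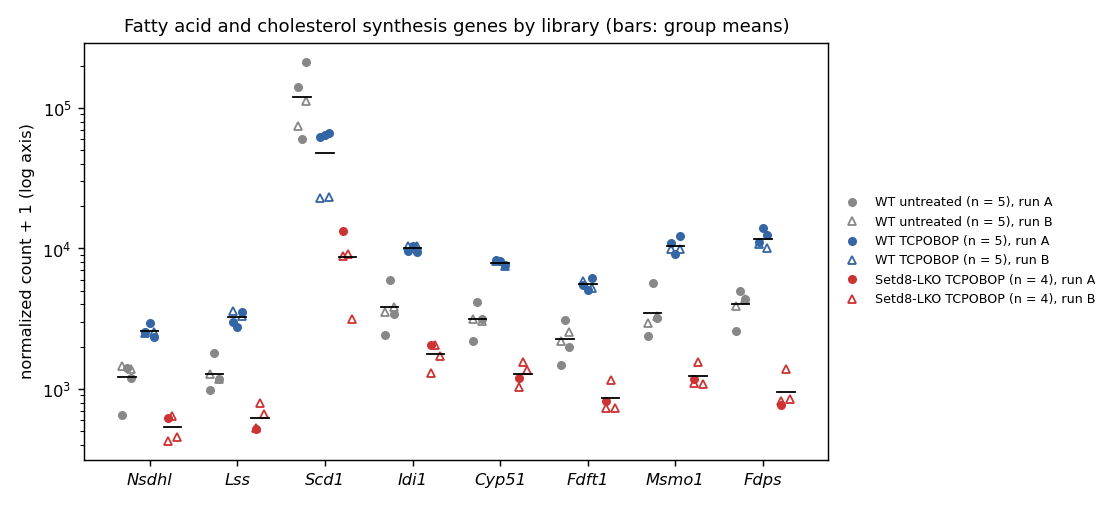
Normalized counts plus 1 (y axis, log scale) of 8 shared genes of fatty acid and cholesterol synthesis (x axis) in each library, with colours, symbols and bars as in the plot of the G2/M genes. In 7 genes the blue WT TCPOBOP points lie above the gray untreated points and the red Setd8-LKO TCPOBOP points below them; Scd1 runs from gray down to red.

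RefSeq windows were found for 5 of these 9 genes, and all 5 held CCAAT while 0 held TTTGAA. Msmo1 (chr8:64733529-64733828, minus strand) and Nsdhl (chrX:72918271-72918570, plus strand) are shown as examples of the shared CCAAT, marked in capitals on either strand, beside the mitotic promoters above.
Msmo1: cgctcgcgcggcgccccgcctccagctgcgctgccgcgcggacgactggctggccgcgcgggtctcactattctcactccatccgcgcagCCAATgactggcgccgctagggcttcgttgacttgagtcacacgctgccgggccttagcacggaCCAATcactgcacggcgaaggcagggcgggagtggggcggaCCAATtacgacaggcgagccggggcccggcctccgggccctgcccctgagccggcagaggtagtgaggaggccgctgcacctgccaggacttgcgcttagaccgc
Nsdhl: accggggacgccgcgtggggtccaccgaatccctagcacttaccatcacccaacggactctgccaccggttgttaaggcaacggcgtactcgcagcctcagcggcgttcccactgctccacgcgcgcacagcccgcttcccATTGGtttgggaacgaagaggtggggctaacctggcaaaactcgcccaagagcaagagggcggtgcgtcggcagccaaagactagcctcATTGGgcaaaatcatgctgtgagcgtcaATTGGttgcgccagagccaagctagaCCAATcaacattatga
They held 3 and 4 matches. Over all 16 genes of the same class with a window, 10 (62.5%) held CCAAT, and over all 283 members 116 (41.0%).

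Other genes with this pattern had larger differences. The lincRNA Gm32468 counted 583, 572, 795, 89 and 103 in WT TCPOBOP, 31, 26, 11, 40 and 19 in untreated WT and 0, 0, 2 and 1 in Setd8-LKO TCPOBOP. Slc13a2, a carrier of citrate and other dicarboxylates, counted 548, 306, 429, 569 and 425, then 115, 137, 250, 60 and 276, and then 5, 5, 10 and 7. Efna3, an ephrin ligand, counted 1378, 1335, 1282, 859 and 1131, then 282, 199, 276, 342 and 295, and then 48, 18, 69 and 26. In these genes Setd8-LKO TCPOBOP libraries were far below the untreated range, with log2 differences from WT TCPOBOP of -6.07 ± 0.33 for Slc13a2 and -4.89 ± 0.41 for Efna3. Gm32468 had 4 raw counts in all Setd8-LKO libraries against 1772 in WT TCPOBOP, and its fitted difference of -8.88 depends on the prior count. Gm15998 is annotated as antisense to Efna3 and moved with it (-5.17 ± 0.51). Sult2a7, a sulfotransferase, counted 66, 83, 85, 56 and 64, then 16, 21, 12, 20 and 6, and then 2, 0, 4 and 2 (-5.09 ± 0.47). The WT TCPOBOP level of Gm32468 was 572 to 795 in the run A libraries, while those of run B had 89 and 103. Of the 32 genes, 30 passed the threshold in the fit, a count that follows from how they were chosen. The pair that did not, Mt2 and the overlapping Gm45774, varied between runs: Mt2, a metallothionein, counted 7959, 8584, 8676, 52 and 711 in WT TCPOBOP and 14, 16, 1538, 4728 and 576 in untreated WT.

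The 7 genes that fell in WT TCPOBOP and rose in Setd8-LKO TCPOBOP included both mitochondrial and cytosolic acyl-CoA thioesterases of the PPARα response. Acot2 (chr12:83987861-83993873, plus strand) counted 68, 105, 132, 116 and 121 in untreated WT, 17, 54, 26, 21 and 22 in WT TCPOBOP and 1044, 856, 1096 and 965 in Setd8-LKO TCPOBOP. Acot1, its cytosolic neighbour on chromosome 12 and near copy, counted 187, 288, 384, 279 and 345, then 38, 92, 30, 47 and 40, and then 1230, 989, 1177 and 811. Every Setd8-LKO library stood above every untreated library, and every WT TCPOBOP library below, with log2 differences of 5.12 ± 0.34 and 4.40 ± 0.33. Igfbp1, a secreted binding protein of insulin-like growth factors, counted 5243, 4702, 2876 and 3778 in Setd8-LKO TCPOBOP against 752, 493, 710, 121 and 357 in WT TCPOBOP, over a wide untreated range of 188 to 3061 (3.09 ± 0.44). Krt23, a keratin of injured and progenitor-like liver cells, counted 76, 92, 29 and 81 against 1, 1, 12, 8 and 9 (3.48 ± 0.55) and was the only shared gene of 19 fetal and progenitor genes. Raet1d, a ligand of the NKG2D receptor, counted 378, 320, 318 and 1043 against 52, 18, 19, 25 and 12 (4.34 ± 0.51), with Setd8-LKO replicate 4 highest. Defb1, a beta-defensin, was 12.2-fold above WT TCPOBOP and the retinol dehydrogenase Rdh9 10.3-fold.

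The acute phase genes of the list that rose in both groups had no called difference. Of 37 acute phase and cytokine genes, 14 were listed for Setd8-LKO TCPOBOP, 16 for WT TCPOBOP and 5 for both. Of these 5, 4 rose in both, and Mt2 lay on opposite sides of untreated WT. Saa-ps, which was not on this list, was called lower as given above. Lcn2, an iron-binding protein of injured liver, counted 10774, 6096, 9736 and 8338 in Setd8-LKO TCPOBOP and 11900, 10309, 9044, 7639 and 8565 in WT TCPOBOP. Its untreated values were 49, 18, 39, 3809 and 27, with replicate 4 far above the other untreated libraries, and the treated groups overlapped (-0.12 ± 0.19). Orm3 (-0.35 ± 0.35), Orm2 (-1.09 ± 0.24) and Apcs (-1.57 ± 0.34) were not called, although Orm2 and Apcs were called without WT TCPOBOP replicate 4 (adjusted p = 0.0211 for each) and Apcs without Setd8-LKO replicate 3 (0.0151). The ratios of the 5 genes had a median of -1.25 within run A and 0.01 within run B. No gene of the circadian, bile acid or interferon lists was shared, and of 11 lists of cell type markers 3 had a shared gene: Gls2 and Ass1, Cyp2a5 and Slc1a2, and Marco.

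The chromatin lists used here were of untreated WT and of TCPOBOP-treated Setd8-LKO livers, so genotype and treatment change together there, and each list of peaks stands for a group without replicate values. H3K27ac marks active promoters and enhancers, and ATAC-seq marks open chromatin. Of the 506 genes, 267 (52.8%) had an H3K27ac peak within 1000 bp of the start site in untreated WT and 284 (56.1%) in Setd8-LKO TCPOBOP, beside 55.6% and 59.0% of all 4113 listed genes. The genes that rose in both went from 147 to 176 of 299, with 33 having a peak only in Setd8-LKO TCPOBOP and 4 only in untreated WT. Those that fell in both went from 103 to 90 of 168, with 3 and 16. Among the 54 falling genes called lower, 10 had a peak only in untreated WT and 0 only in Setd8-LKO TCPOBOP, beside 6 and 2 of the 104 not called. Among the 52 rising genes called higher the numbers were 1 and 8, beside 2 and 23 of the 231 not called.

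Single start sites followed the RNA in some genes and not in others. Cyp2b10 had no H3K27ac or ATAC peak in untreated WT and had both in Setd8-LKO TCPOBOP, at a -log10 p of 85.9 and 27.5. Ccnb1 and Top2a had an H3K27ac peak only in Setd8-LKO TCPOBOP (37.8 and 61.2) and an ATAC peak in both. Sult2a8 had an H3K27ac peak only in untreated WT (73.7), and Clec2h had a peak of either kind only there. Fdps and Msmo1 had peaks of both kinds in both groups, while Mybl1 had H3K27ac peaks in both (200.3 and 289.6). At ATAC peaks the share over the 506 genes was 40.3% in untreated WT and 37.0% in Setd8-LKO TCPOBOP, beside 38.1% and 32.3% of all listed genes, from lists of 27307 and 23386 peaks. With a window of 2500 bp these shares were 49.2% and 45.7%. Start sites in Lamin A/C islands, which mark contact with the nuclear lamina, were few: 13 of the 506 in untreated WT and 12 in Setd8-LKO TCPOBOP (2.57% and 2.37%), against 252 and 184 of 4113 (6.13% and 4.47%). The islands covered 849.8 Mb and 757.6 Mb.

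**Figure D5:**
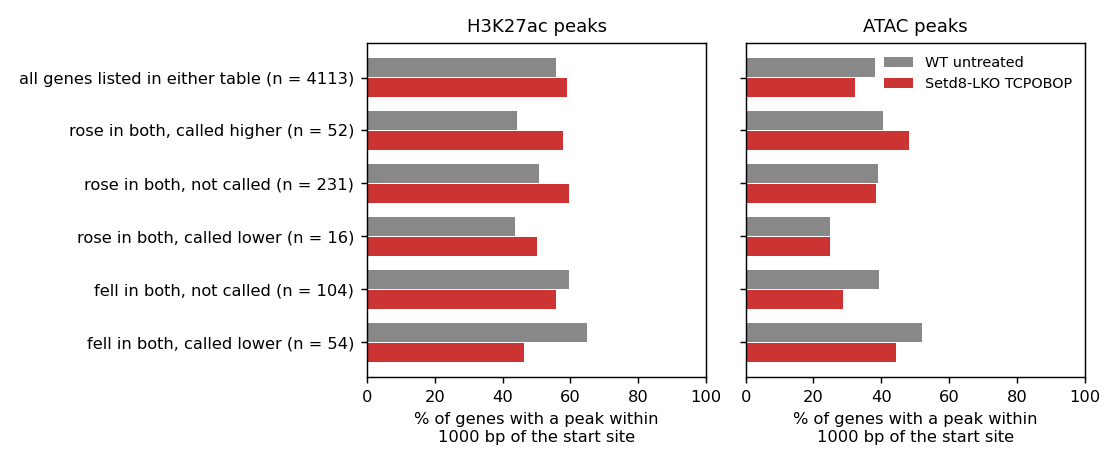
Share of genes with an H3K27ac peak (left) or ATAC peak (right) within 1000 bp of the start site (x axis, percent) in the lists of untreated WT (gray) and Setd8-LKO TCPOBOP (red), for all 4113 listed genes and by call between the treated groups (y axis). H3K27ac shares are 64.8% (gray) and 46.3% (red) among falling genes called lower, and 44.2% and 57.7% among rising genes called higher.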

How the data were processed

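RNA-seq of whole liver was used from 14 libraries. Per the study's methods, reads were trimmed, aligned to mm10 with HISAT2 and tested with metaseqR, and the authors deposited 2 tables of the genes that passed an FDR under 0.05 and a 2-fold change against untreated WT. Each deposited table gives raw read counts per gene and counts normalized by the authors, which were rounded to whole numbers and are treated as a score. The raw counts of untreated WT were the same in both tables (0 values differed), so the tables were joined on the gene identifier. The p-value and FDR columns deposited by the authors, and 114 transformed columns, were not used except to find that 18512 genes had been tested. Depth of the whole libraries is not known from tables of selected genes.

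The 506 genes and all gene lists were chosen with earlier results of these data known. Raw counts of the 9 treated libraries were fitted with edgeR 4.0.16 (quasi-likelihood test, R 4.3.3), with the authors' normalization as offsets, for genes with at least 10 counts in at least 4 libraries. Of the 506, 496 passed, and the 10 that did not had all fallen in both. P-values were adjusted by Benjamini-Hochberg over the 18512 genes, and a gene was called where this p was under 0.05 and the fitted change was 2-fold or more. The SE printed for a gene was derived from the test, as the absolute log2 difference over the square root of its F. It is approximate, above all for genes near the floor. On simulated counts of 492 genes with this design, the test found 57 of 99 genes changed by 1.5 log2 units and 96 of 98 changed by 3.

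Named genes were Cyp2b10 and Kmt5a, the 5 largest called differences in each direction and class without overlap between groups, the 5 largest in each direction among opposite-side genes, and the shared genes of the lists. Others (Gm43738, Gm45774, Pdzrn3, Rdh9) were picked with their values in view. Peaks of H3K27ac and ATAC were deposited by the authors with the −log10 p of MACS2 2.2.7.1, and Lamin A/C islands with a SICER score, 1 list per group; how replicates were pooled is not given in the sources used here. A gene was given a peak that came within 1000 bp of its start. Alternatives were other scaling (DESeq2 size factors, TMM), filters, DESeq2 1.42.0, limma 3.58.1, all 14 libraries, run as a term, run B alone, a replicate block, and each library left out. Counting overlapping genes once was added after the data were seen. CTCF, SMC3 and H4K20 lists were not used here. The values of 1 shared gene are not reported here.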

Additional observations from a re-analysis of the deposited data

Results flagged for a closer look

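In 29 of 343 groups of libraries examined over the named genes, 1 library stood apart from the others by Dixon's ratio, the gap to the nearest library over the whole range of the group. With normally spread values, chance would flag about 1 group in 20. The ratios were taken on untransformed counts and the groups reuse the same libraries, so that rate may not hold here.

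Untreated WT replicate 4 stood apart in 7 genes, always as the highest. The acute phase genes among them were Lcn2 (ratio 0.992), Orm2 (0.857), Apcs (0.82) and Orm3 (0.782). The others were Gm15998 (0.754), Gadd45b (0.722) and Msmo1 (0.718). Lcn2 counted 3809 there and at most 49 in the other untreated libraries. Whether this liver differed in handling or state was not tested. It is not among the 9 libraries of the main fit. It is part of the untreated baseline by which genes were listed and classed, and of the fit over all 14 libraries.

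Setd8-LKO replicate 3 stood apart in Slco1a1 (0.87), Tsku (0.885), Gdf15 (0.861), Cyp2u1 (0.838) and Cyp7b1 (0.835). Setd8-LKO replicate 4, the only library of this group from run A, stood apart in Raet1d (0.917), Cyp2a4 (0.925) and Cyp2a5 (0.886). Setd8-LKO replicate 2 did so in Akr1b7 (0.86), Clspn (0.892) and Fdps (0.854), and replicate 1 in Gtse1 (0.909).

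In WT TCPOBOP, replicate 2 stood apart in Acot2 (0.757) and its near copy Acot1 (0.726). Replicate 4 did so in Gstm3 (0.824), Rrm2 (0.731) and, as the lowest, Gm15998 (0.714), and replicate 5 as the lowest in Cyp2a4 (0.832). In untreated WT the remaining cases were Myc in replicate 3 (0.957), Cdc45 (0.731) and Lig1 (0.786) in replicate 5, and Fitm1 in replicate 2 (0.749).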

How the results depend on the processing

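Of the rising genes, 52 were higher and 16 lower with the Setd8-LKO label, and of the falling genes 0 were higher and 54 lower. From run B alone these counts were 12, 2, 0 and 16. The rising genes called lower were 10 with DESeq2 size factors, 9 with TMM, 28 with DESeq2 and 29 when p-values were adjusted over the genes tested. Falling genes called higher were 2 with DESeq2 size factors, 2 with TMM, 1 with DESeq2 and 2 when adjusted over the genes tested. Leaving out 1 library at a time gave 40 to 52, 8 to 22, 0 to 0 and 40 to 53. The cause of these shifts was not tested. Run B alone and the fits with a library left out also have fewer samples. For genes named singly, 2502 values under an alternative kept direction and side of the threshold, 132 lost the call, 22 gained it and 42, in 16 genes that were not called, changed sign. Of the 2502, 124 came from the authors' factors as deposited and 123 from dropping the fold limit. Both settings reused the main fit, so their direction could not change.

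The log2 differences that turned, with DESeq2 size factors and with TMM, were 0.094 and 0.15 for Cyp2b13, 0.051 and 0.11 for Cyp3a41a, 0.17 and 0.23 for Ephx1, 0.16 and 0.23 for Gstm1, 0.19 and 0.26 for Cib3, 0.19 and 0.26 for Fitm1, 0.17 and 0.23 for Ppargc1a and 0.11 and 0.17 for Lcn2. From run B alone Pole was -0.20, Mcm3 -0.021, Cux2 0.78, Ppargc1a 0.21, Lcn2 0.13, Orm3 0.0087 and Mt2 0.66, and with run as a term Cux2 was 0.0077 and Fitm1 0.19. With 1 library left out, Cyp2a5 ranged from -0.00092 to 0.58, Cyp2b13 from -0.29 to 0.012, Gstm1 from -0.12 to 0.022, Mcm6 from -0.11 to 0.55, Cib3 from -0.26 to 0.16, Fitm1 from -0.47 to 0.17, Ppargc1a from -0.20 to 0.085, Ass1 from -0.073 to 0.23 and Lcn2 from -0.24 to 0.019. The cause was not tested.

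With the replicate number as a replicate block the counts were 21, 3, 0 and 22. The numbers did not pair the samples: deviations of same-numbered libraries correlated at -0.01, -0.30, -0.26 and -0.12, and no library correlated best with its own number. Counting overlapping genes once left 48, 15, 0 and 46. ATAC shares over all 506 genes moved from 40.3% and 37.0% to 49.2% and 45.7% within 2500 bp. Genes near the floor in the libraries labelled Setd8-LKO have fold changes that depend on the prior count.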
